A study of Mus musculus with 2 samples.

Results

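Dense distal clusters of open chromatin were taken from the ATAC-seq peak list of wild-type (WT) E14 mouse ESCs. ATAC-seq uses the Tn5 transposase to insert adapters into DNA that nucleosomes leave accessible, and a peak is a listed open position. A WT peak was distal when it lay on an autosome, outside gaps of the mm9 assembly, with its centre more than 2 kb from every GENCODE vM1 transcript start. Distal peaks at most 12.5 kb apart were stitched, and groups of 6 or more peaks were kept. The rule gave 327 clusters holding 2499 WT peaks, of 32034 distal WT peaks and 71914 WT peaks in all. Peaks of the Uhrf1 KO list, which held 61640 peaks of which 30565 were distal, were then looked up inside each cluster. The WT peak positions alone chose the clusters, so their number, peak count and density are descriptions and support nothing further.

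The WT sample was undifferentiated E14 ESCs, and the KO sample was undifferentiated E14 ESCs lacking Uhrf1, an E3 ubiquitin ligase that recruits maintenance DNA methylation to hemimethylated DNA. Both lines came from the Koseki group and were grown in serum medium with LIF on gelatin or on plates coated with MEFs (mouse embryonic fibroblasts), and any feeder cells in the lysate would add open sites of fibroblasts. There was 1 library per genotype. A difference between the lists therefore has no replicate error, no test between the genotypes was possible, and the values compare 2 libraries. The lists hold positions and no read counts, so the depth behind a peak is unknown. The Uhrf1 promoter had 2 WT and 3 KO peaks within 2 kb of a start and no cluster within 50 kb, and an open promoter does not check the KO label. All 10 ESC marker genes examined, among them Pou5f1, Sox2 and Nanog, had a peak within 2 kb of a start in both lists (31 WT and 30 KO peaks in all). Of 10 fibroblast genes, 7 had one in WT and 6 in KO (22 and 16 peaks), with none in either list at Col3a1, Postn or Lum. The part of feeder cells in the results was not tested.

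Enhancers are open stretches bound by transcription factors, and they act on promoters over a distance. In ESCs, groups of neighbouring enhancers bound by Oct4, Sox2 and Nanog, often called super-enhancers, lie beside genes that define the cell state. Dense groups of open sites also occur at CpG-rich developmental loci and at arrays of small RNA genes, and a peak list by itself does not tell these apart.

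Example peaks are shown first, since the clusters mix all of these kinds of DNA. Each is the plus strand of mm9 (NCBIM37), 5′ to 3′, over the 101 bp of a listed WT peak. In the first set, capitals mark the octamer ATGCAAAT, the letters that Oct4 and other POU factors bind, or its reverse complement. These 4 were taken from octamer peaks without a KO peak within 100 bp. Of the 34 cluster peaks with an octamer in the central 200 bp, outside the start of chromosome 1, 17 had a KO partner and 17 did not. Wwc2 encodes a WW-domain protein and Pcdh8 a protocadherin, while the miR-290 genes give the most abundant microRNAs of mouse ESCs.
upstream of miR-290, chr7:3213714-3213814: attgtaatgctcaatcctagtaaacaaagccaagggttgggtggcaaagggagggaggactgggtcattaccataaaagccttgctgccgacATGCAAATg
Wwc2 intron, chr8:49006279-49006379: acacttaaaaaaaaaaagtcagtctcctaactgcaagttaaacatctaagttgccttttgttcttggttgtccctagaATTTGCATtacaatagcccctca
near Gad1-ps, chr10:98931720-98931820: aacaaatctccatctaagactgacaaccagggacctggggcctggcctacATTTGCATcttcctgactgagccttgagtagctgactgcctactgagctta
beside Pcdh8, chr14:80173997-80174097: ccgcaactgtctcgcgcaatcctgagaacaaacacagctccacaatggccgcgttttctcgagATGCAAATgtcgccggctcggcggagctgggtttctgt

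In the second set, from clusters beside signalling genes, capitals mark the Sox letters CCATTGTT in the first peak and the Esrrb letters TCAAGGTCA in the next. The Id1 peak had no KO peak within 100 bp, and the Spry2 peak had one.
Id1 side, chr2:152554056-152554156: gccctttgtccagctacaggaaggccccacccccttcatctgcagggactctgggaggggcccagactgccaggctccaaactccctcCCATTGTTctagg
Spry2 side, chr14:106258816-106258916: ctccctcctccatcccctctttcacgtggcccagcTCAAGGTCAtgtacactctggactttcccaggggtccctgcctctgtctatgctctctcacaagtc

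In the third set, from clusters of repeated sequence, capitals mark GGTTCNANT or its reverse complement. These are the core letters of the B box, an internal promoter element of tRNA genes and other RNA polymerase III genes. The Zfp184 cluster lies where RefSeq (GRCm38.p6, used for names only) lists 31 tRNA genes within 100 kb, and the Ezh2 to Pdia4 clusters where it lists the repeated small RNA gene Rn4.5s. Where the marked letters of the Ezh2 to Pdia4 peaks lie relative to Rn4.5s was not examined, so they need not be an internal element. The central 31 bp of the Zfp184 peaks each occurred at 7 places of the genome, and those of the other pair at 8 and 16 places.
Zfp184 side, first, chr13:22011066-22011166: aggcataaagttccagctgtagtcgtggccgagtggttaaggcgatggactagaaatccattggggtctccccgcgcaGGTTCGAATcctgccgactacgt
Zfp184 side, second, chr13:22028972-22029072: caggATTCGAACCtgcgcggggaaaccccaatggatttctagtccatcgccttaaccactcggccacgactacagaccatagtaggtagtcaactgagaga
between Ezh2 and Pdia4, first, chr6:47618045-47618145: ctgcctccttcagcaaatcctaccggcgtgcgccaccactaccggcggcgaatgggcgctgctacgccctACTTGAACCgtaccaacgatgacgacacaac
between Ezh2 and Pdia4, second, chr6:47713377-47713477: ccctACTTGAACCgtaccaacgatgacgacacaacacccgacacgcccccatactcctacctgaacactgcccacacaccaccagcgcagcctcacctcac

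A warning on position comes before the results. In the first 3 Mb of chromosome 1, which mm9 leaves unsequenced, the lists held 145 WT and 130 KO peaks, so reads cannot have mapped where these peaks are listed. In the next 3 Mb, 14 clusters with 150 WT peaks lay side by side, and the last of them ended at 5896876. This stretch had 64.2 clusters per 1000 distal WT peaks, against 8.75 over the rest of chromosome 1. Its cluster peaks had a median GC of 38.5% over their central 200 bp, against 58.0% in the other clusters, and 25.3% of them had a central 31 bp that was repeated elsewhere, against 8.60%. The cause of this pattern was not tested, and the main values are given with these 14 clusters and without them, where 313 clusters are left.

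The clusters ranged from single broad open stretches to chains of separate peaks. They had a median of 7 WT peaks and at most 30, and spanned 0.572 to 49.2 kb with a median of 12.9 kb. Together they covered 4.48 Mb, which is 0.181% of the autosomes, and held 7.80% of the distal WT peaks. Neighbouring peaks in a cluster were separated by a median of 223 bp, and 40.7% of the 2172 gaps were at most 100 bp. Where such peaks were merged, the 2499 peaks became 1615 separate open regions with a median of 5 per cluster. Of the 327 clusters, 107 then held 6 or more regions, and 25 clusters held 1 or 2. In most clusters the listed peaks thus fell into fewer than 6 separate stretches. At the threshold, the 264 groups of 5 WT peaks just outside the rule held 775 KO peaks (0.587 per WT peak, 64.2% of WT peaks with a KO partner), and the 135 clusters of 6 just inside held 520 (0.642 per WT peak, 68.6%).

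Most cluster peaks of WT ESCs were listed in Uhrf1 KO ESCs too. A KO peak lay within 100 bp of 1711 of the 2499 cluster peaks, a share of 68.5% (95% exact binomial interval 66.6 to 70.3), against 60.1% (59.5 to 60.6) of the 29535 other distal WT peaks and 60.7% of all distal WT peaks. The difference was 8.41 percentage points (6.46 to 10.3). These intervals cover counting error only, and peaks of a cluster are not independent. Without the start of chromosome 1 the share was 67.3% (65.4 to 69.2) of 2349 peaks and the difference 7.28 points. All peaks were shared in 59 clusters and none in 6. The paired peaks were set less exactly in clusters: the nearest KO peak centre was a median of 24 bp away, against 11 bp for other distal WT peaks. When at least 1 bp had to be shared, the cluster share was 60.9% and that of other distal peaks 57.2%.

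The clusters held fewer KO than WT peaks. Inside them lay 1558 distal KO peaks, or 0.623 per WT peak (0.585 to 0.664), and 0.603 without the start of chromosome 1. Over all distal peaks the KO list had 0.954 peaks per WT peak. The ratio was also low in spans built from fewer WT peaks: it was 0.580 in pairs, 0.572 in groups of 3, 0.567 in groups of 4 and 0.587 in groups of 5. In clusters of 6 it was 0.642, in those of 7 it was 0.627, in those of 8 or 9 it was 0.570 and in those of 10 or more it was 0.644. A distal WT peak standing alone had 0.591, over a span of its own width, which is not comparable with a span of kilobases. The median cluster had 0.6 KO peaks per WT peak, with quartiles of 0.400 and 0.833. KO peaks were at least as many as WT peaks in 51 clusters, 103 clusters held 6 or more KO peaks, with or without a WT partner, and 4 held none. Of the 1558 KO peaks, 1454 lay within 100 bp of a WT peak and 104 did not.

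**Figure D1:**
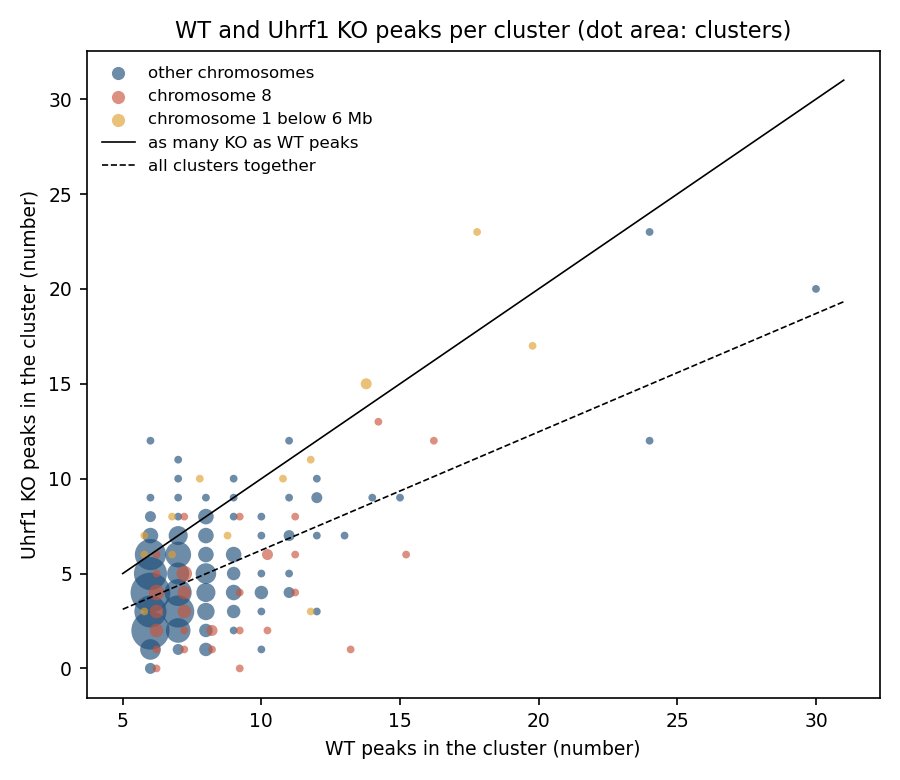
Number of WT peaks (x axis) and of Uhrf1 KO peaks (y axis) in each of the 327 clusters, with dot area proportional to the number of clusters at that point, the chromosome 8 and chromosome 1 dots set slightly aside, a solid line at equal numbers and a dashed line at the ratio over all clusters, 0.623. Most dots lie under the solid line, 51 clusters lie on or above it, and the clusters from the start of chromosome 1 sit higher than most.

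The same rule was applied to the KO list to see what choosing by a list does. It gave 204 clusters with 1557 KO peaks, of which 78.5% (76.4 to 80.5) had a WT peak within 100 bp, against 61.1% of other distal KO peaks and 61.9% of all distal KO peaks. Those spans held 0.797 WT peaks per KO peak, where the distal lists as a whole had 1.05. So a list looked up in clusters built from the other one came out lower in both directions, and further so for KO peaks in WT clusters. Relative to the ratio over all distal peaks, the WT clusters held 0.653 of the KO peaks and the KO clusters 0.760 of the WT peaks. Of the WT clusters, 111 (33.9%) overlapped a KO cluster, which is 54.4% of the KO clusters.

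The share with a KO partner followed the number in the peak name. Peaks are named by chromosome and a number, and lower numbers were more often in both lists, while the deposited score is 1 for every peak and gives no strength. Cluster peaks had lower numbers than other distal peaks: 16.3% of them were in the lowest quintile of their chromosome's numbers, against 9.74%, and 14.9% were in the highest quintile, against 28.3%. In the lowest quintile a KO partner was listed for 98.5% of cluster peaks and 98.7% of other distal peaks. In the middle quintile these shares were 67.3% and 66.7%, and in the highest 39.1% and 36.0%, with overlapping intervals in each quintile. Other distal peaks weighted to the quintiles of the cluster peaks would have had a share of 67.9%, which leaves 0.556 percentage points of the difference, or 0.297 without the start of chromosome 1. In the KO clusters 9.08 points were left after the same weighting.

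**Figure D2:**
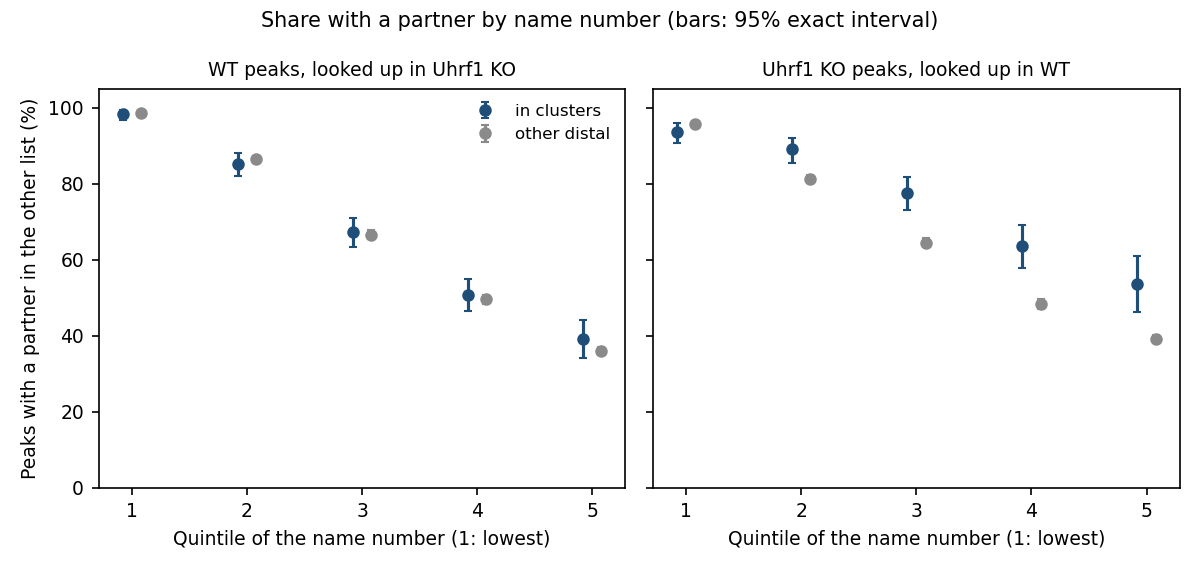
Percent of peaks with a partner in the other list (y axis) by quintile of the name number (x axis, 1 lowest), for WT peaks looked up in Uhrf1 KO (left) and KO peaks looked up in WT (right), with 95% exact binomial intervals as bars. Left, cluster peaks and other distal WT peaks run together from about 98.5% to 39.1%; right, KO cluster peaks lie above other distal KO peaks from the second quintile on.

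Cluster peaks were rich in GC and CpG, which the rule did not use. Their median GC was 57.5%, against 53.0% in other distal WT peaks, and their median ratio of observed to expected CpG was 0.429 against 0.263. Of cluster peaks, 27.0% (25.2 to 28.8) had at least 60% GC and a CpG ratio of at least 0.6, against 7.72% (7.42 to 8.03) of other distal peaks; without the start of chromosome 1 the cluster share was 28.5%. DNA of this composition is typical of CpG islands, which in ESCs are mostly unmethylated and often lie at promoters of developmental genes. By annotation 66.5% of cluster peaks were intergenic, 25.2% intronic and 8.24% exonic, against 60.6%, 33.9% and 5.53% of other distal peaks. Cluster peaks lay a median of 16.1 kb from a transcript start, against 21.4 kb. The 200 bp windows of adjoining cluster peaks overlap, and the interval of the share rich in GC and CpG treats such peaks as independent.

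The number of KO peaks per WT peak was also counted by GC content. Without the start of chromosome 1, clusters with a median GC under 50% held 0.661 KO peaks per WT peak (17 clusters), those of 50% to 55% held 0.689 (84 clusters), those of 55% to 60% held 0.606 (84 clusters), those of 60% to 65% held 0.579 (72 clusters) and those of 65% or more held 0.498 (56 clusters). From 50% on the ratio was lower in each higher class, and the class under 50% was below the next one. Over the whole lists, all distal peaks under 45% GC had 1.70 KO peaks per WT peak, those of 45% to 55% had 1.04, those of 55% to 65% had 0.695 and those of 65% or more had 0.573. For peaks inside the clusters, the ratios in the same classes were 0.818, 0.668, 0.593 and 0.513. The clusters were below all distal peaks in every class, most so under 55% GC and least so at 65% or more. Weighted to the GC classes of the cluster peaks, all distal peaks had 0.801 KO peaks per WT peak, against 0.603 in the clusters. These ratios are not like for like. WT peaks chose the cluster spans, while the ratio over all distal peaks also counts KO peaks far from any WT peak. Clusters built from the KO list were low in WT peaks too (0.760 of the ratio over all distal peaks), so the weighting does not isolate the clusters. With 1 library per genotype, a genotype effect and a library effect on GC cannot be told apart. Within the clusters a KO partner was listed for 67.9% (64.2 to 71.4) of CpG-rich peaks and 67.1% (64.8 to 69.3) of the others, and the intervals overlap.

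**Figure D3:**
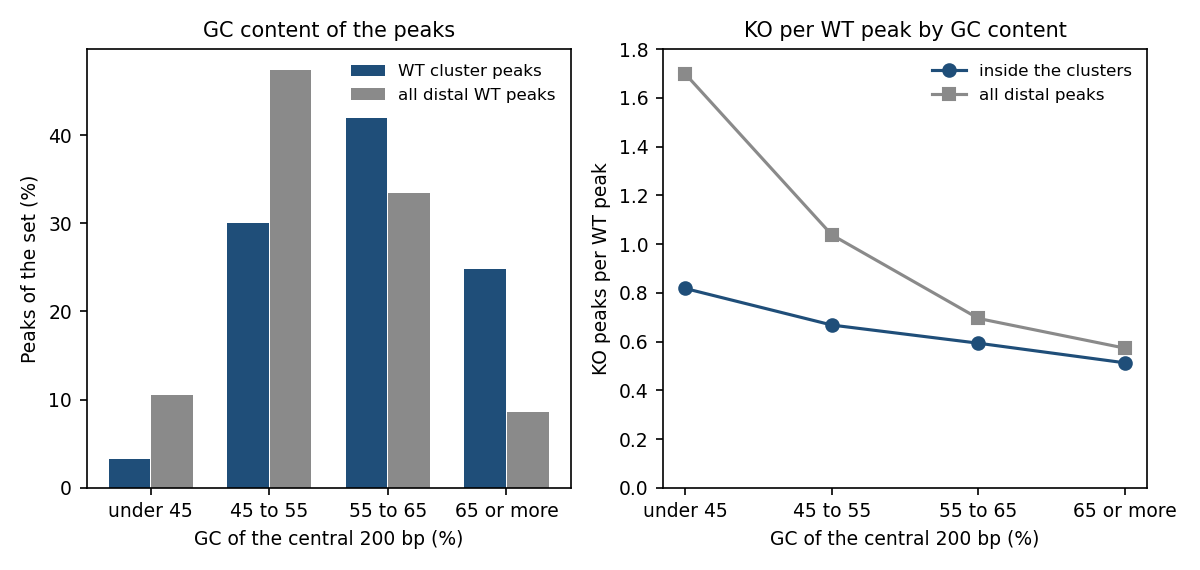
Left, percent of WT cluster peaks and of all distal WT peaks (y axis) in 4 classes of GC content of the central 200 bp (x axis); right, KO peaks per WT peak (y axis) in the same classes, inside the clusters and over all distal peaks, without the first 6 Mb of chromosome 1. Cluster peaks are shifted to high GC, and the ratio over all distal peaks runs from 1.70 to 0.573 with rising GC while that inside clusters runs from 0.818 to 0.513.

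Clusters were found on all 19 autosomes, and chromosome 8 stood apart. It carried 44 clusters (13.5% of all) with 7.77% of the distal WT peaks, or 17.7 clusters per 1000 distal WT peaks, where the other chromosomes except chromosome 1 ran from 5.33 to 13.6. Its clusters held 178 KO peaks for 356 WT peaks, a ratio of 0.5, and 53.4% (48.0 to 58.7) of their peaks had a KO partner. The whole of chromosome 8 was low in KO peaks, with 0.624 per WT peak over distal positions, so relative to its own chromosome the cluster ratio was 0.802. Without chromosome 8, 283 clusters had a share of 71.0% and a ratio of 0.644. Chromosome 19 had a still lower cluster ratio of 0.222, from 10 KO and 45 WT peaks in 6 clusters. Without both the start of chromosome 1 and chromosome 8, 269 clusters had a share of 69.8% and a ratio of 0.622.

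**Figure D4:**
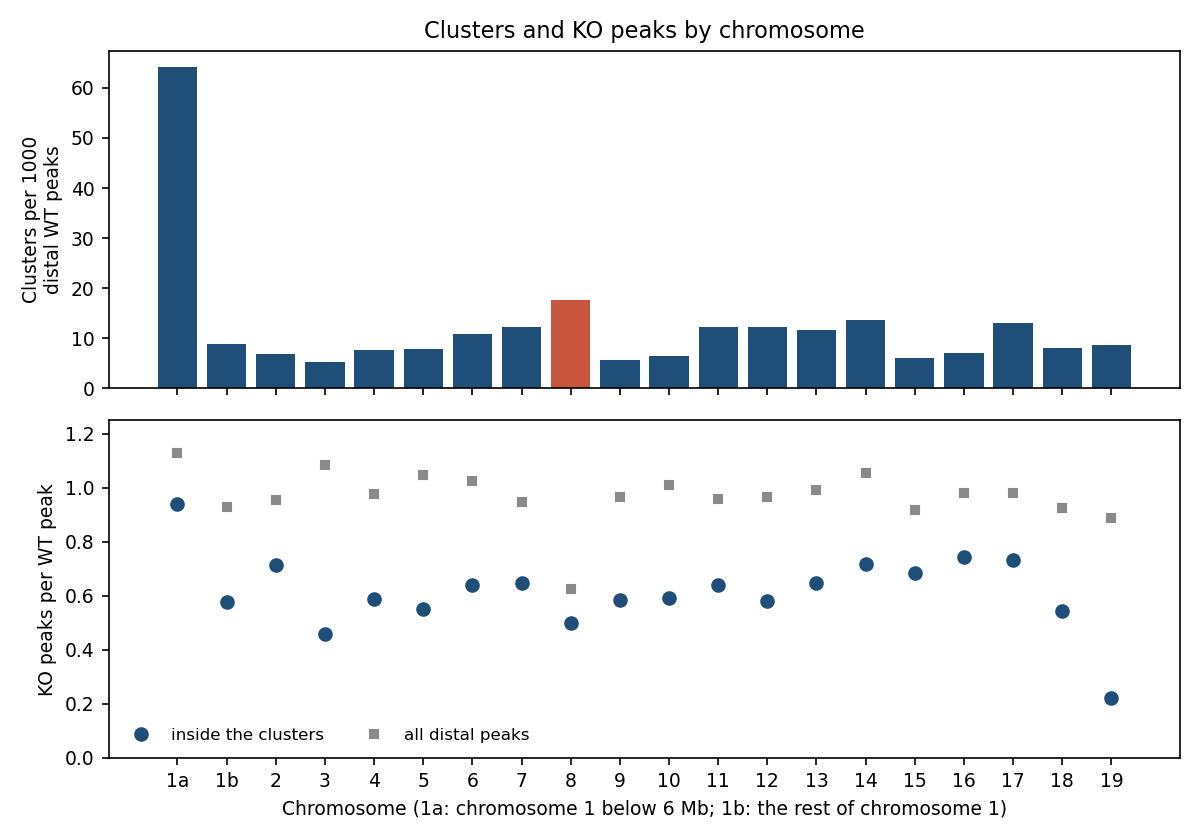
Top, clusters per 1000 distal WT peaks (y axis) for each autosome (x axis), with chromosome 1 split at 6 Mb and chromosome 8 in red; bottom, KO peaks per WT peak inside the clusters and over all distal peaks. The start of chromosome 1 has 64.2 clusters per 1000 and chromosome 8 has 17.7, and the ratio inside clusters is below that of all distal peaks on every chromosome shown.

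Of the 3 clusters with most WT peaks, 2 were at repeated small RNA genes. Between Ezh2, the catalytic subunit of the Polycomb complex that methylates histone H3 lysine 27, and Pdia4, a protein disulfide isomerase of the endoplasmic reticulum, chr6:47600893-47635750 held 30 WT peaks with an exact 95% Poisson interval of 20.2 to 42.8, beside 20 KO peaks with one of 12.2 to 30.9, and chr6:47689892-47728506 held 24 and 12. In these, 24 of 30 and 21 of 24 WT peaks had a repeated central 31 bp, so reads placed there could come from any copy. At chr17:39980146-39983654, 24 WT peaks with a median GC of 71.0% faced 23 KO peaks. All 24 were shared, and all were in the lowest quintile of the name number. It was the largest cluster in which every peak was shared. The central 31 bp of each peak occurred at 1 place of mm9. Copies that the assembly lacks were not counted, so the DNA there is not shown to be single-copy. A cluster in Gm6483 on chromosome 8 held 16 WT and 12 KO peaks, with 12 repeated WT peaks. Of the other clusters among the 12 with most WT peaks, chr4:21605517-21623354 at Prdm13, a PR-domain factor of the neural tube, held 15 WT and 9 KO peaks with 13 shared and a median GC of 72.5%. A cluster 44608 bp from the start of Chd2, a chromatin remodeller, held 14 WT and 9 KO peaks with 13 shared. In the start of chromosome 1, 4 clusters held 20, 18, 14 and 14 WT peaks and 17, 23, 15 and 15 KO peaks. The cluster of 12 WT peaks beside Zfp184, whose tRNA sequences are printed above, held 7 KO peaks, with 8 of its 12 peaks shared. Without peaks whose central 31 bp was repeated in mm9, 279 clusters remained by the same rule. They had a share of 66.5% and a ratio of 0.6. Only copies in the assembly were counted, so the peaks at chr17:39980146-39983654 passed this filter.

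Within 50 kb of the start of, or overlapping, a protein-coding gene a cluster was present for 2.61% of the 21418 autosomal genes. Of 17 annotated naive pluripotency factors, 3 (17.6%) had one: Klf5, a zinc-finger factor that sustains self-renewal, with 6 WT and 5 KO peaks; Esrrb, an orphan nuclear receptor of the naive network, with 6 WT and 3 KO peaks inside the gene; and Gbx2, a homeobox factor downstream of LIF, with 9 WT and 4 KO peaks. In all, 14 of their 21 WT peaks (66.7%) were shared, beside 68.5% of all cluster peaks. In the KO list 2 of the 17 factors had a cluster by the same rule, against 1.45% of all genes. The KO cluster 2646 bp from the Klf2 start held 6 KO and 3 WT peaks. The one 18362 bp from the Prdm14 start held 9 KO and 6 WT peaks. No WT cluster of the rule overlapped Pou5f1, Sox2 or Nanog or lay within 50 kb of their starts. Distance was measured from gene starts, so clusters farther along these loci were not counted.

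Upstream of the miR-290 genes, chr7:3193168-3213814 held 13 WT peaks in 9 regions and 7 KO peaks, and 11 of the 13 (84.6%) had a KO partner. The span ended 4813 bp before the start of Mir290. Its WT peaks without a KO partner included the last, which carries the octamer shown above. The cluster was named after its values were seen.

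Of 23 signalling genes of ESCs, 6 (26.1%) had a cluster, beside 2.61% of all genes. Lefty2 and Lefty1, the secreted Nodal antagonists, shared 1 cluster of 6 WT and 4 KO peaks with 5 shared. Spry2, an inhibitor of receptor tyrosine kinase signalling, had 7 WT and 6 KO peaks. Id1 and Id2, the BMP-induced inhibitors of bHLH factors, were lower: Id1 had 6 WT and 2 KO peaks with 1 shared, and Id2 had 8 WT (3.45 to 15.8) and 1 KO peak (0.0253 to 5.57) with 1 shared. Socs3, the feedback inhibitor of LIF-Stat3 signalling, had 6 WT and 2 KO peaks with 2 shared. Over the 5 clusters 14 of 33 WT peaks (42.4%) were shared, beside 68.5% of all cluster peaks and 60.7% of all distal WT peaks. This share was not weighted by name number or GC content. Most peaks at Id1, Id2, Socs3 and Spry2 were in the middle or higher quintiles of the name number, where other distal peaks had fewer KO partners too. The median GC was 60.75% at Id1, 61.25% at Id2, 69.5% at Socs3, 55.25% at Lefty2 and 48% at Spry2. The Poisson intervals of the WT and KO numbers overlap in each of the 5 clusters.

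Among 16 chromatin and DNA methylation genes, 1 (6.25%, beside 2.61% of all genes) had a cluster: Tet1, a 5-methylcytosine dioxygenase, of 6 WT and 3 KO peaks with 4 shared. Among 13 primed and formative genes, 1 (7.69%) had one: Sall1, a zinc-finger repressor, with 7 WT and 4 KO peaks.

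**Figure D5:**
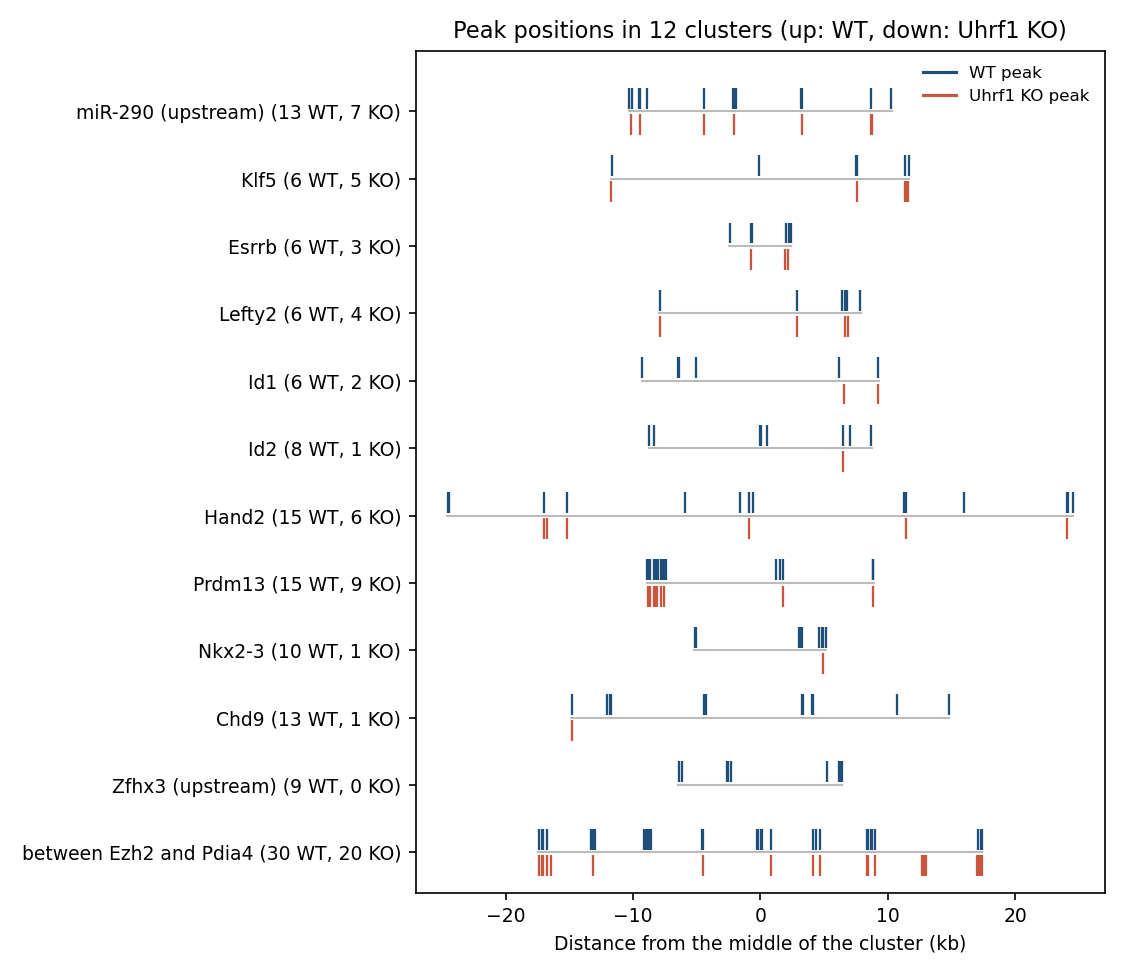
Positions of WT peaks (ticks up) and Uhrf1 KO peaks (ticks down) in 12 clusters, in kb from the middle of each cluster (x axis); each grey line is the span of a cluster, labelled with its gene and peak numbers. KO ticks fall at the same places as WT ticks upstream of miR-290, while 1 KO tick faces 8 WT ticks at Id2 and none faces the 9 of the cluster upstream of Zfhx3.

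Lineage genes of cells that ESCs can become also had clusters, beside the 2.61% of all genes. Of 11 neuroectoderm genes, 3 had a cluster: Nes, an intermediate filament gene of neural progenitors (8 WT and 4 KO peaks, 7 shared), Lhx2, a LIM homeobox factor of the forebrain (7 and 3, 3 shared), and Tubb3, a neuronal tubulin (14 and 13, 7 shared). The cluster counted for Tubb3 overlapped Gm20388, and all 14 of its WT peaks were intronic. It lay 11094 bp from the Tubb3 start and nearer, at 8729 bp, to the Def8 start. Of 14 mesoderm and endoderm genes, 4 had one. Hand2, a bHLH factor of heart and limb, had the widest span of all clusters at 49.2 kb, with 15 WT (8.40 to 24.7) and 6 KO peaks (2.20 to 13.1). Sox17, the endoderm factor, lay in the start of chromosome 1 and had 11 WT and 10 KO peaks with all 11 shared. Cdx2, a trophectoderm and posterior homeobox factor, had 7 and 4, and Msx2, a homeobox factor downstream of BMP, 6 and 2. In the KO list, 1 of the 23 signalling, 1 of the 11 neuroectoderm and 1 of the 14 mesoderm and endoderm genes had a cluster by the same rule. Of the 13 primed and formative and the 16 chromatin genes, 0 had one, beside 1.45% of all genes. The list counts are small and were not tested.

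Developmental transcription factor families recognised by symbol, a list added after the clusters were seen, had clusters at 15 of 161 genes (9.32%, against 2.61% of all genes). Of these, Sox17, Lhx2, Hand2 and Msx2 were already counted in the lineage lists above, and Tbx2 and Tbx4 had the same cluster. In the KO list 3 of the 161 had a cluster by the same rule, against 1.45% of all genes. The 14 WT clusters at these genes held 118 WT and 47 KO peaks, a ratio of 0.398, with 53.4% shared beside 68.5% of all cluster peaks, and their median GC was 63.5%, where KO peaks were scarce over the whole list. Foxa1, a pioneer factor of endoderm, had 12 WT (6.20 to 21.0) and 3 KO peaks (0.619 to 8.77), and Foxc1, a mesenchymal forkhead factor, had 6 and 2. Tbx18, a T-box factor of heart and urogenital mesenchyme, had 11 and 4 with 8 shared.

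The 6 clusters with the fewest KO peaks per WT peak, of the 107 with 8 or more WT peaks, were chosen by this ratio and are a description. Upstream of Zfhx3, a homeodomain and zinc-finger factor of neurons, chr8:111216043-111228928 held 9 WT peaks (4.12 to 17.1) and 0 KO peaks (0 to 3.69), and the next cluster inside the gene held 8 and 1. In Chd9, a chromatin remodeller, 13 WT peaks (6.92 to 22.2) faced 1 KO peak. By name number, the peaks upstream of Zfhx3 were in quintiles 4 and 5 and those in Chd9 in quintiles 3 to 5. Other distal WT peaks had a KO partner in 66.7% of quintile 3, 49.7% of quintile 4 and 36.0% of quintile 5. Nkx2-3, a homeobox factor of gut and spleen, had 10 WT and 1 KO peak, and Nkx3-2, a homeobox factor of the axial skeleton, had 8 and 1, with none of its 8 peaks shared. At Id2 it was 8 and 1. Of these 6, 3 were on chromosome 8. The other 3 clusters with no KO peak, of 6 WT peaks each, were near Lbx1, inside Wwc2 and near Gad1-ps.

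The highest KO numbers per WT peak, chosen in the same way, came with KO peaks close to or above WT. Outside the start of chromosome 1, Nkain1 had 8 WT (3.45 to 15.8) and 9 KO peaks (4.12 to 17.1), a cluster on the side of Spred2, a Ras pathway inhibitor, 9 and 10, and Tns3, a focal adhesion protein, 11 and 12, with 7, 8 and 9 WT peaks shared. The remaining 3 of the 6 lay in the start of chromosome 1, led by 18 WT and 23 KO peaks in Xkr4. For each of these the WT and KO intervals overlap.

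Motif letters were counted in the central 200 bp on both strands, without the start of chromosome 1. Over all clusters, 1430 of the 2499 peaks had another cluster peak within 100 bp. Their windows overlap, so 1 site can count for several peaks. The intervals of all motif shares treat such peaks as independent and cover counting error only. The octamer was present in 1.45% of cluster peaks (34 of 2349, interval 1.00 to 2.02), against 2.47% (2.29 to 2.65) of other distal WT peaks, and in 2.39% of all distal WT peaks. Among cluster peaks without a KO partner it was present in 2.21% (1.29 to 3.52) and among those with one in 1.08% (0.628 to 1.72), with overlapping intervals. The Esrrb letters were in 0.255% of cluster peaks (6 peaks) and in 0.468% of other distal peaks. The GC box GGGGCGGGG was in 7.88% (6.82 to 9.04) of cluster peaks against 3.56% (3.36 to 3.78), and the Nrf1 letters GCGCNTGCG in 2.21% (1.66 to 2.89) against 1.13% (1.01 to 1.26). The B box letters were in 3.07% (2.41 to 3.85) against 1.60% (1.46 to 1.75). Of these 72 cluster peaks, 12 and 9 lay in the repeated clusters between Ezh2 and Pdia4, so they are not independent. In flanking windows 1 kb away the B box letters were in 2.19% against 1.78%. The Klf letters CCACACCC were in 3.83% against 4.15%. A match of letters is not a binding site. Matches of different motifs overlapped in 7 cases, 6 of AP-1 (TGANTCA) with the E box CAGCTG and 1 of AP-1 with the octamer.

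Pairing was also counted by place in the cluster, over all 2499 peaks. Cluster peaks with another cluster peak within 100 bp had a KO partner in 75.3% of 1430 (73.0 to 77.5), and those without one in 59.3% of 1069 (56.3 to 62.3). By the partner rule, 1 KO peak can count for several adjoining WT peaks, which can raise the first share, so these shares do not compare open stretches. The outermost peaks had one in 65.9% of 654 (62.1 to 69.5) and inner peaks in 69.4% of 1845 (67.2 to 71.5). Without the start of chromosome 1, peaks in exons were paired less often than intergenic ones, in clusters (57.0%, 49.8 to 64.0, against 68.7%, 66.3 to 71.0) as among other distal peaks (48.2% against 62.2%).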

How the data were processed

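The authors mapped ATAC-seq reads to mm9 and used fragments under the nucleosomal length. The submitters' processing notes name Bowtie2 2.1.0 and HOMER 4.9.1. The peak caller's threshold is not given in the sources used here. The deposited files are 1 peak list per genotype, with positions and a score that the authors set to 1 for every peak. They hold no read counts, and the depth behind a peak is unknown.

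Distal peaks were stitched with Python 3.11.15, pandas 2.3.3, numpy 2.4.6 and scipy 1.17.1. A KO peak no more than 100 bp away counted as a partner, and a KO peak was in a cluster when it was distal and overlapped the span. The routine was tested on 2586 simulated peaks in 400 groups and made 0 wrong calls. Sequence was read from NCBIM37, which is mm9, with pysam 0.24.0 and samtools 1.23.1. Copies of the central 31 bp were counted on both strands with numba 0.67.0, and figures drawn with matplotlib 3.10.9. Shares have 95% exact (Clopper-Pearson) and peak numbers 95% exact Poisson intervals. No test between genotypes was made, since each has 1 library, and that library is the group.

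Clusters named were the 12 with most WT peaks, and those overlapping a listed gene or within 50 kb of its start. Among clusters of at least 8 peaks, the 6 with the lowest and the 6 with the highest number of KO peaks per WT peak were also named. The miR-290, Zfp184 and developmental family clusters and all motifs except the octamer and Esrrb letters were chosen after their values were seen. The members and lists were chosen with earlier results of these data known. Alternatives were another stitching distance, cluster size, distance to transcript starts and partner rule, adjoining peaks merged, single-copy peaks, no chromosome 8, lists of equal length, all peaks inside the clusters with promoter peaks included, the whole listed peak for sequence, and clusters built from the KO list. Leaving out the start of chromosome 1 was added after seeing the data.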

Additional observations from a re-analysis of the deposited data

Results flagged for a closer look

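The first 3 Mb of chromosome 1 and other unsequenced stretches of mm9 were left out of the clusters. By the same stitching, the WT list held 6 further clusters of 6 or more peaks at such positions, with 59 of its 149 peaks there, and the KO list held 6, with 48 of its 134 peaks. No read can map to these positions, so they were singled out as a signal outside the measurement. The first sequenced stretch after them holds the 14 low-GC clusters described above, and the cause was not tested.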

How the results depend on the processing

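No paired analysis was possible because the lists come from 1 library per genotype and no test was made. The peak lists hold no counts, so depth limits no single peak in a measurable way. The number of clusters, 327 by the rule, was 175 with stitching at most 5 kb, 583 at most 25 kb, 43 with at least 10 peaks and 107 with adjoining peaks merged first; in the other 6 alternatives it lay within 1.5 times. The share of cluster peaks with a KO partner (68.5%) was 74.2% at 5 kb, 65.2% at 25 kb, 71.4% with at least 10 peaks, 64.8% after merging, 66.5% with single-copy peaks, 71.0% without chromosome 8, 72.3% with lists of equal length, 60.9% with 1 bp shared and 78.5% for KO clusters looked up in WT. The number of KO peaks per WT peak (0.623) was 0.704 after merging and 0.676 with equal lists, and within its interval in 9 alternatives. The ratio over all distal peaks moved too, from 0.954 to 0.990 after merging and 1.19 with equal lists. For KO clusters the value was 0.797, which is the inverse measure, WT peaks per KO peak. The difference to other distal peaks (8.41 points) was 14.1 at 5 kb, 5.29 at 25 kb, 10.9 with at least 10 peaks, 6.22 after merging, 10.3 with single-copy peaks, 5.63 with equal lists, 3.67 with 1 bp shared and 17.4 for KO clusters. It stayed above 0 in all 12 alternatives. The cause of these shifts was not tested. Over the whole 101 bp peak in place of 200 bp, median GC was 59.4%, and the octamer was in 0.680%, the Esrrb letters in 0.0800% and the GC box in 4.08% of cluster peaks, from 1.40%, 0.240% and 7.40%.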

Other observations

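The KO list held clusters that were sparse in WT. Among the 68 KO clusters of 8 or more peaks, the one with fewest WT peaks per KO peak lay 35043 bp from the start of Sox17 (chr1:4521537-4536631), with 10 KO peaks and 1 WT peak and a median GC of 45.8%. It is in the start of chromosome 1, where listed positions are in doubt. A cluster 139822 bp from the start of Klra1, a natural killer cell receptor gene, had 8 KO and 2 WT peaks, one in Lekr1 had 14 and 5, and one in Poteg had 11 and 4. These were chosen by this ratio and are given as a description. KO peaks in the WT clusters that had no WT partner (104) had a median GC of 51.0%, against 56.5% for the 1454 with one.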
